A study of Mus musculus with 6 samples.

Results

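The genes described are 36 aminoacyl-tRNA synthetase genes of the mouse, chosen by name from the 30409 genes in the deposited files and found through their Ensembl gene identifiers. Of these, 20 make cytosolic enzymes and 16, with symbols that end in 2, make mitochondrial ones. Symbols are the older ones used with these files, so Aars is the gene now called Aars1. RNA-seq was read in 4 libraries of cells sorted from C57BL/6 mouse marrow by the surface markers of the long-term blood stem cell (LT-HSC): they lack lineage markers, CD34 and Flk2 and carry Sca1 and cKit. There was 1 library each of Twist1 cKO cells 12 days after irradiation, wild-type cells 12 days after irradiation, Twist1 cKO cells at steady state and wild-type cells at steady state. Twist1 encodes a transcription factor and cKO stands for its conditional knockout. The Cre line, the radiation dose and the number of animals behind a library were not stated in the labels. The series title names mitochondrial metabolism in stem cells as its subject, and the question for these genes is how their levels differed with genotype and with irradiation.

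Aminoacyl-tRNA synthetases join each amino acid to its transfer RNA and so supply the ribosome with charged tRNA. The cytosolic enzymes serve translation in the cytoplasm, and a separate set, also encoded in the nucleus, serves the mitochondrial ribosomes that make the respiratory chain subunits of the mitochondrial genome. Gars and Kars each make both a cytosolic and a mitochondrial enzyme, Eprs joins glutamate and proline enzymes in 1 protein, and Farsa and Farsb encode the subunits of the cytosolic phenylalanine enzyme. Haematopoietic stem cells are known for a low rate of protein synthesis compared with the progenitors they give rise to.

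Before the results, the libraries have to be set against their labels. The reads that the FPKM values stand for could be recovered and summed to between 20349810 and 25100739 per library over all genes. Twist1 itself had 0 and 5 reads in irradiated cKO and wild-type cells, and 2 and 6 reads at steady state, so the deletion could hardly be checked at this depth. Genes that define LT-HSCs were low in both irradiated libraries, some of them nearly absent. The 12 genes listed summed to 272 FPKM in irradiated cKO and 111 FPKM in irradiated wild-type cells, most of it Ly6a, the gene of Sca1, against 692 and 800 FPKM in cKO and wild-type cells at steady state, and none was at 0. Hlf, a transcription factor of stem cells, stood at 0.102 and 0.0608 FPKM after irradiation, against 17.7 and 17.4 FPKM at steady state. The 12 erythroid genes listed summed to 15020.5 FPKM in irradiated cKO and 10906 FPKM in irradiated wild-type cells, against 1582 and 2891 FPKM in cKO and wild-type cells at steady state. Xist, which is transcribed from the inactive X chromosome, and Ddx3y, on the Y chromosome, also separated the libraries by condition: Xist had 0.573 and 1.003 FPKM in the irradiated cKO and wild-type libraries and 0.0155 and 0.0171 FPKM in those at steady state, and Ddx3y had 0.0164 and 0.0521 FPKM against 12.4 and 10.2 FPKM. Immunoglobulin genes took 10.1% and 3.04% of the reads in irradiated cKO and wild-type cells, and 10.7% and 16.1% in cKO and wild-type cells at steady state. The irradiated libraries are therefore called irradiated cells below, not irradiated LT-HSCs. How much of a difference in a synthetase gene goes with cell type, sex of the animals or condition cannot be told apart here, and neither can fewer cells of a type from less RNA per cell.

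All 36 genes were read in every library and had a mean of at least 1 FPKM (fragments per kilobase of gene model and library size). Recovered reads ranged from 80 for Pars2 in irradiated cKO cells to 10854 for Nars in irradiated wild-type cells. FPKM values are per length, but the lengths behind them are those of union gene models, between 1547 bases for Pars2 and 18102 bases for Eprs. Levels of different genes therefore depend on how much of each model the cells transcribe.

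In steady-state cells the cytosolic set stood well above the mitochondrial set. The median of the 20 cytosolic genes was 23.3 FPKM in cKO and 22.2 FPKM in wild-type cells, and that of the 16 mitochondrial genes 4.68 and 4.80 FPKM. The median of the 11505 genes with a mean of at least 1 FPKM was 7.23 and 7.15 FPKM in the same libraries. Counted as reads, the cytosolic genes took 2513 and the mitochondrial genes 634 reads per 1e6 reads in genes in cKO cells, against 2245 and 675 in wild-type cells. The cytosolic total was thus the higher in cKO cells and the mitochondrial total the higher in wild-type cells, and without Lars2 the mitochondrial total was also higher in cKO cells, at 502 against 433.

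Nars, the asparagine enzyme, had the highest mean level of all, on chromosome 18 (chr18:64499655-64516515, build GRCm38.p6). It stood at 139 FPKM in irradiated cKO and 186 FPKM in irradiated wild-type cells, and at 81.8 and 88.4 FPKM in cKO and wild-type cells at steady state. Hars, for histidine, followed with 113 and 159 FPKM after irradiation in cKO and wild-type cells and 53.6 and 54.1 FPKM at steady state. Farsb, Kars and Dars, for phenylalanine, lysine and aspartate, came next. Farsb had 93.1 and 139 FPKM in irradiated cKO and wild-type cells and 52.9 and 51.3 FPKM at steady state. Kars had 79.7 and 117 FPKM in irradiated cKO and wild-type cells and 52.3 and 56.3 FPKM at steady state. Each of these genes was highest in irradiated wild-type cells and second in irradiated cKO cells. Dars, with 61.9 and 95.4 FPKM in irradiated cKO and wild-type cells and 58.4 and 52.4 FPKM at steady state, kept that order but with irradiated cKO cells barely above steady state. Cars and Qars, for cysteine and glutamine, were the lowest cytosolic genes. In the mitochondrial set Rars2, Lars2 and Yars2 led and Wars2 and Mars2 were lowest.

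**Figure D1:**
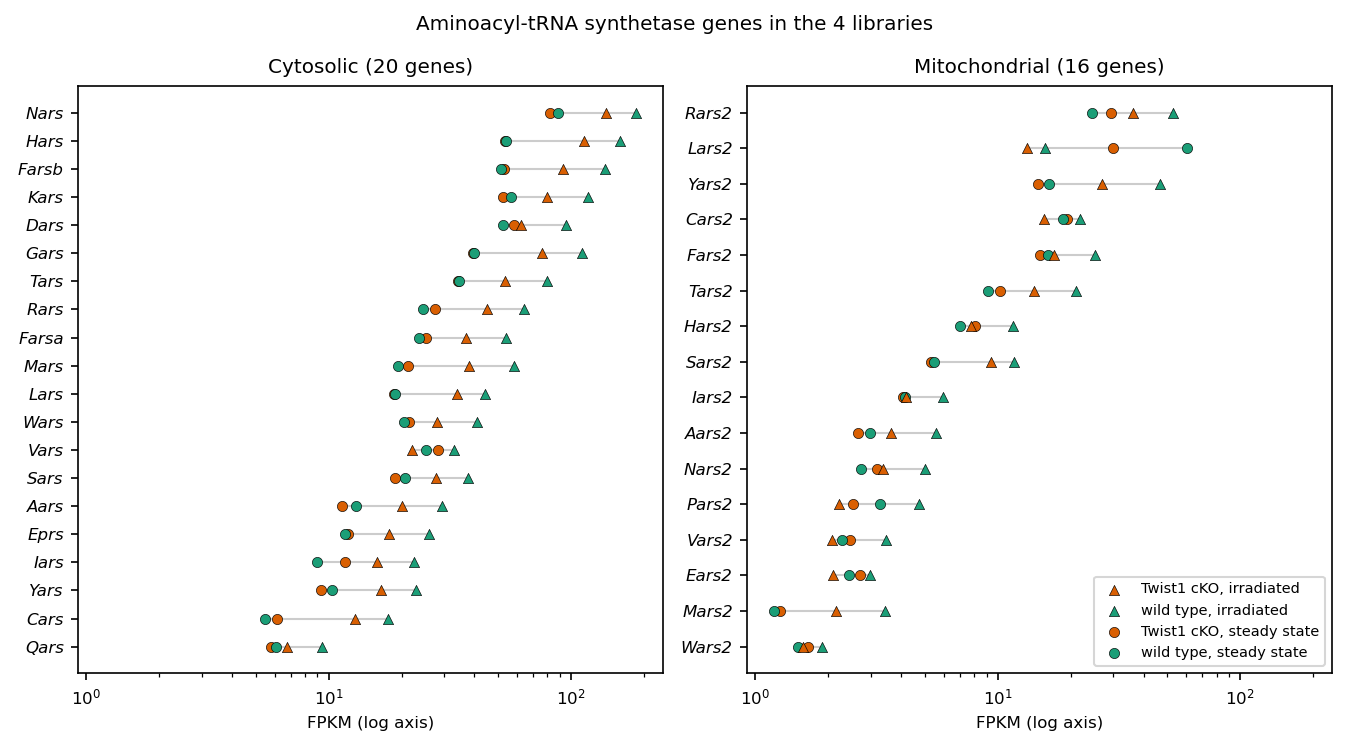
FPKM (log axis) of each of the 36 genes in the 4 libraries, with cytosolic genes on the left and mitochondrial genes on the right, ordered by mean level; circles are steady-state and triangles irradiated cells, with Twist1 cKO in orange and wild type in green. In every cytosolic gene the irradiated wild-type library is highest, and Lars2 alone has its highest value in steady-state wild-type cells.

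At steady state the synthetase genes were much the same in cKO and wild-type cells, with the exception of Lars2. Differences are given as log2(FPKM + 1), cKO minus wild type, and a gene is counted as apart at 1.5-fold on that scale. The median difference was 0.01 for the cytosolic and 0.05 for the mitochondrial set, against 0.02 for all 11505 genes. Scaled to the reads recovered in genes, these medians were 0.14, 0.15 and 0.13. None of the 20 cytosolic genes was 1.5-fold apart, while over all genes 2.2% were higher and 4.98% lower in cKO cells. Cytosolic differences ran from -0.18 for Aars, the alanine enzyme, to 0.35 for Iars, the isoleucine enzyme. Iars had 11.7 FPKM in cKO and 8.96 FPKM in wild-type cells, a ratio of 1.30 (95% interval 1.21 to 1.41). Intervals here and below cover counting error in the 2 libraries only, as there are no replicates, and no test of any difference was possible. Rars2, the mitochondrial arginine enzyme, followed with 29.3 FPKM in cKO and 24.5 FPKM in wild-type cells, a ratio of 1.196 (1.12 to 1.28). Pars2, the mitochondrial proline enzyme, had 2.54 FPKM in cKO and 3.28 FPKM in wild-type cells, and its interval for the ratio, 0.590 to 1.01, took in equality. Hars2, the mitochondrial histidine enzyme, came next among the higher ones, with 8.05 FPKM in cKO and 6.98 FPKM in wild-type cells.

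Lars2, the mitochondrial leucine enzyme (chr9:123366927-123462675), was the 1 mitochondrial gene 1.5-fold apart at steady state. It had 29.9 FPKM in cKO and 60.2 FPKM in wild-type cells, so that the cKO level was 0.497 times the wild-type level (0.475 to 0.519). In cKO cells Lars2 made up 19.7% of the summed FPKM of the mitochondrial set, and in wild-type cells 33.8%. After irradiation it was low in both genotypes, at 13.2 FPKM in cKO and 15.7 FPKM in wild-type cells, or 8.17% and 6.53% of the set. Lars2 was thus lower after irradiation in both genotypes, by 1.12 on the log2 scale in cKO and by 1.88 in wild-type cells, the reverse of every other mitochondrial gene in wild-type cells. Genes for mitochondrial ribosomal RNA, looked at after the Lars2 values were seen, ordered the libraries in the same way. For mt-Rnr1 the levels were 28.4 and 31.9 FPKM in irradiated cKO and wild-type cells, and 75.8 FPKM in cKO and 112 FPKM in wild-type cells at steady state. For mt-Rnr2 they were 391 and 419 FPKM in irradiated cKO and wild-type cells, and 962 and 1076 FPKM at steady state in the same genotypes. A clone-named gene, CT010467.1, had 16.4 and 21.4 FPKM in irradiated cKO and wild-type cells, and 44.8 and 79.5 FPKM in cKO and wild-type cells at steady state. All 3 were highest in steady-state wild-type cells and lowest in irradiated cKO cells, as Lars2 was. Gm15564 and Gm26870, which were also looked at and had between 29 and 122 reads, did not keep this order. Gm15564 had 2.08 and 1.59 FPKM in irradiated cKO and wild-type cells, and 1.40 and 3.18 FPKM at steady state. Gm26870 had 1.54 and 2.05 FPKM in irradiated cKO and wild-type cells, and 0.456 and 1.01 FPKM at steady state. Whether reads were shared between these genes and Lars2, which would change what its FPKM values count, was not tested.

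In Twist1 cKO cells the cytosolic synthetase genes stood further above their steady-state values after irradiation than the mitochondrial genes did. The cytosolic median, irradiated minus steady state, was 0.66 and the mitochondrial one 0.04, against -0.27 over all genes. The mitochondrial value depended on the scaling and on the genes taken: it was 0.25 with scaling by the median of ratios, 0.24 among members with a mean of at least 5 FPKM and -0.077 without the 50 most abundant genes. Of the mitochondrial genes 13 of 16 lay above the median of all genes. Abundant genes were higher than that as a whole, with a median of 0.20 among the 3077 genes with a mean of at least 20 FPKM. Of the cytosolic genes 12 were at least 1.5-fold higher, against 18.2% of all genes, and none was 1.5-fold lower, against 35.7%. Hars had the highest difference, 1.07, or 2.12 times its steady-state level (2.02 to 2.22), followed by Cars at 0.96 and Gars, the glycine enzyme, at 0.93. Gars had 76.0 FPKM in irradiated and 39.3 FPKM in steady-state cKO cells, and in wild-type cells 111 and 39.9 FPKM. Cars had 12.9 and 6.13 FPKM in irradiated and steady-state cKO cells. Vars, the valine enzyme, was the 1 cytosolic gene that was lower in irradiated cKO cells by any amount, against 62% of all genes, at 22.2 FPKM against 28.4 FPKM at steady state, a ratio of 0.780 (0.744 to 0.819). Of the mitochondrial genes Yars2 and Sars2, the tyrosine and serine enzymes, were at least 1.5-fold higher, and Lars2 was the 1 gene at least 1.5-fold lower. Yars2 had 27.0 FPKM in irradiated and 14.7 FPKM in steady-state cKO cells, and Sars2 had 9.41 and 5.29 FPKM. Cars2, the cysteine enzyme, came next among the lowest of the 36, at 15.5 FPKM in irradiated and 19.3 FPKM in steady-state cKO cells.

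In wild-type cells all 20 cytosolic synthetase genes were higher after irradiation, against 49.3% of all genes, and the signed difference was above that in cKO cells for every member of both sets but Lars2, which held for 75.3% of all genes. The median difference, irradiated minus steady state, was 1.14. Of the 20 genes 18 were at least 1.5-fold higher, against 27.8% of all genes, and Vars and Qars were not. The median over all genes was -0.01, but abundant genes were higher as a whole: the median was 0.27 among the 6589 genes with a mean of at least 5 FPKM and 0.59 among the 3077 with at least 20 FPKM. Hars and Mars, the methionine enzyme, had differences of 1.54 and Cars one of 1.52, the 3 highest of all 36. Hars was 2.94 times its steady-state level (2.81 to 3.07). Mars had 58.2 FPKM in irradiated and 19.4 FPKM in steady-state wild-type cells, and Cars 17.6 and 5.46 FPKM. Vars, with 33.1 FPKM in irradiated and 25.4 FPKM in steady-state wild-type cells, differed least, by 0.37. The interval of the cytosolic genes' ratios lay above 1 in all 20.

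The mitochondrial set was higher in irradiated wild-type cells too, but by less. Its median difference was 0.64, 15 of 16 genes were higher, against 49.3% of all genes, and 9 were at least 1.5-fold higher, against 27.8%. Scaled to the reads recovered in genes, 5 were. Lars2 was the 1 gene at least 1.5-fold lower, against 29.6% of all genes. The median was 0.39 with a pseudocount of 5 FPKM and 0.31 without the 50 most abundant genes. Yars2 led with 46.6 FPKM in irradiated and 16.4 FPKM in steady-state wild-type cells, a ratio of 2.85 (2.67 to 3.04) and a difference of 1.46. The others counted as higher were Tars2, Rars2, Mars2, Sars2, Aars2, Nars2, Hars2 and Fars2, with differences between 0.62 and 1.13. Cars2, Ears2 and Wars2, the last 2 for glutamate and tryptophan, were the nearest to no difference, between 0.20 and 0.23. Wars2 had 1.88 FPKM in irradiated and 1.51 FPKM in steady-state wild-type cells, a ratio of 1.25 (1.04 to 1.497) as deposited. Ears2 had 2.96 and 2.43 FPKM. Scaled to the reads recovered in genes, the ratio for Wars2 was 1.08 (0.895 to 1.29). The intervals for Cars2 and Ears2 took in equality on that scale too. The cytosolic median exceeded the mitochondrial median by 0.50, and by 0.49 without Lars2. Mitochondrial genes are also the less abundant ones, and 8 of the 16 had a mean of at least 5 FPKM, against 20 of 20 cytosolic genes. Among these more abundant members the gap between the set medians was 0.32.

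Of the other cytosolic genes at least 1.5-fold higher in irradiated wild-type cells, Tars, for threonine, had 53.2 and 79.4 FPKM in irradiated cKO and wild-type cells and 34.2 and 34.6 FPKM at steady state. Rars, for arginine, had 45.2 and 63.9 FPKM in irradiated cKO and wild-type cells and 27.4 and 24.5 FPKM at steady state. Farsa had 37.0 and 54.1 FPKM in irradiated cKO and wild-type cells and 25.2 and 23.7 FPKM at steady state. In these 3 the steady-state libraries lay close together and the irradiated libraries apart, with the wild-type one on top. Mars had 38.0 and 58.2 FPKM in irradiated cKO and wild-type cells and 21.2 and 19.4 FPKM at steady state. Lars, for leucine, had 33.7 and 44.1 FPKM in irradiated cKO and wild-type cells and 18.6 and 18.7 FPKM at steady state. Wars, for tryptophan, had 28.1 and 40.9 FPKM in irradiated cKO and wild-type cells and 21.4 and 20.4 FPKM at steady state. Lars differed least between the irradiated libraries among the cytosolic genes, by -0.38. Sars, for serine, had 27.7 and 37.5 FPKM in irradiated cKO and wild-type cells and 18.9 and 20.6 FPKM at steady state. Aars had 20.04 and 29.4 FPKM in irradiated cKO and wild-type cells and 11.3 and 13.0 FPKM at steady state. Eprs had 17.7 and 26.0 FPKM in irradiated cKO and wild-type cells and 12.0 and 11.7 FPKM at steady state. As deposited, Aars had the lower steady-state value in cKO cells, with 0.876 times the wild-type level (0.831 to 0.922). The interval for Eprs, 0.988 to 1.07, took in equality. Scaled to the reads recovered in genes this was reversed. The interval for Aars, 0.914 to 1.01, then took in equality, and that for Eprs, 1.09 to 1.17, lay above 1. Iars had 15.8 and 22.6 FPKM in irradiated cKO and wild-type cells, and Yars, for tyrosine, had 16.4 and 22.9 FPKM, against 9.28 and 10.3 FPKM at steady state. Both irradiated libraries were above both steady-state libraries in all of these genes.

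Of the mitochondrial genes at least 1.5-fold higher in irradiated wild-type cells, Rars2 had 36.2 and 53.0 FPKM in irradiated cKO and wild-type cells and 29.3 and 24.5 FPKM at steady state. Fars2, for phenylalanine, had 17.1 and 25.2 FPKM in irradiated cKO and wild-type cells and 14.9 and 16.1 FPKM at steady state. Tars2, for threonine, had 14.2 and 21.1 FPKM in irradiated cKO and wild-type cells and 10.2 and 9.13 FPKM at steady state. All 3 were highest in irradiated wild-type cells and second in irradiated cKO cells. Hars2 had 7.74 and 11.5 FPKM in irradiated cKO and wild-type cells and 8.05 and 6.98 FPKM at steady state. Sars2 had 9.41 and 11.7 FPKM in irradiated cKO and wild-type cells and 5.29 and 5.44 FPKM at steady state. Aars2, Nars2 and Mars2 were low in every library, between 1.19 and 5.56 FPKM. In Hars2 the irradiated cKO value lay between the steady-state ones, whereas in Sars2 both irradiated values were above them.

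**Figure D2:**
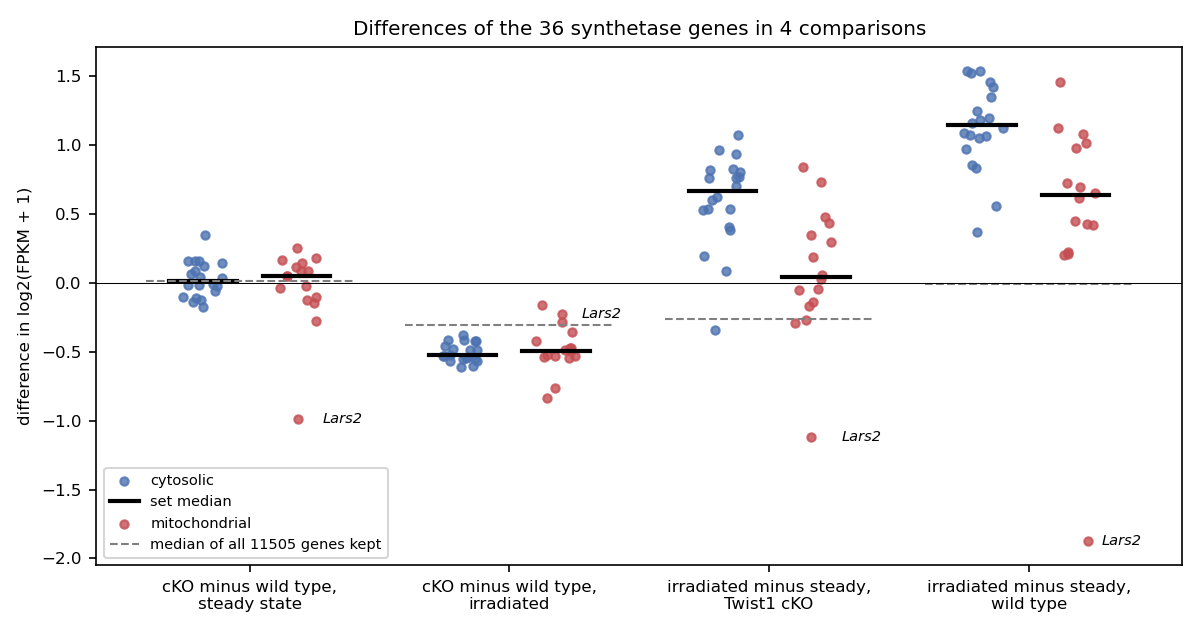
Difference in log2(FPKM + 1) of each gene in the 4 comparisons, with cytosolic genes in blue and mitochondrial genes in red; black bars are set medians and dashed lines the median of the 11505 genes with a mean of at least 1 FPKM. The cytosolic medians after irradiation are 0.66 in cKO and 1.14 in wild-type cells, the mitochondrial ones 0.04 and 0.64, and Lars2 lies apart in 3 of the 4 comparisons.

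The order of the genes in their irradiation response was much alike in both genotypes. Over the 36 genes the differences in cKO and in wild-type cells had a Pearson correlation of 0.91 and a Spearman correlation of 0.90, which over all 11505 genes were 0.72 and 0.84. The pairs of libraries do not overlap, but the points share the gene models, the depth of the libraries and the sort, and genes are not independent replicates. Without Lars2 the values were 0.92 and 0.90, so that they did not rest on this gene. Differences between genotypes at steady state and after irradiation had a Pearson correlation of -0.17 over the 36 genes and of 0.20 without Lars2. The sign of the Pearson value thus rested on this gene. The Spearman correlation was -0.10 with Lars2 and -0.02 without it. Over all genes the Pearson value was -0.14 and the Spearman value 0.12.

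**Figure D3:**
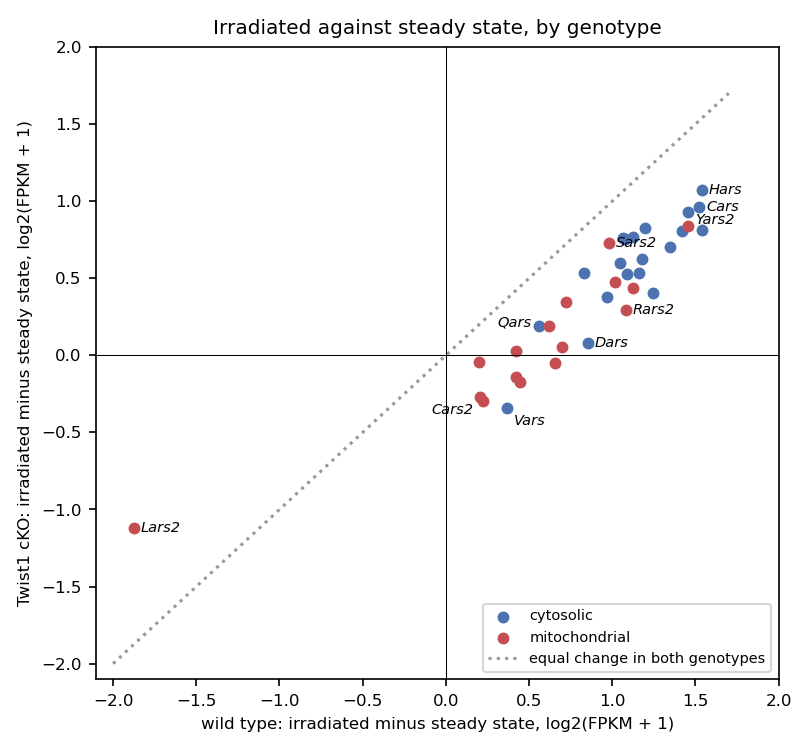
Irradiated minus steady state in log2(FPKM + 1) for the 36 genes, in wild-type cells on the horizontal axis and in Twist1 cKO cells on the vertical axis; the dotted line marks equal differences. All genes but Lars2 lie below the line, with differences between 0.20 and 1.54 in wild-type cells.

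In irradiated cells, all 36 synthetase genes had lower values in cKO than in wild-type cells as deposited. The median difference, cKO minus wild type, was -0.53 for the cytosolic and -0.49 for the mitochondrial set. Over all genes the median was -0.31, and 75.3% of genes were lower by some amount. Among genes with a mean of at least 20 FPKM the median was -0.52 and 87.9% were lower. Of the synthetases 2 cytosolic genes, Dars and Mars, and 2 mitochondrial genes, Pars2 and Yars2, were at least 1.5-fold lower, against 15.3% of all genes, and none was 1.5-fold higher, against 7.86%. Pars2 had the lowest difference, -0.84, with 2.21 FPKM in cKO and 4.73 FPKM in wild-type cells, which rests on 80 and 162 reads. Yars2 had 27.0 FPKM in cKO and 46.6 FPKM in wild-type cells, a ratio of 0.579 (0.548 to 0.613). Dars had a ratio of 0.650 (0.629 to 0.671) and Mars one of 0.652 (0.623 to 0.683). As ratios without the pseudocount, Vars2, Mars2, Aars2 and Nars2 were also 1.5-fold lower, at 0.601, 0.630, 0.656 and 0.666, and no further cytosolic gene was. These are genes of low level, on which the pseudocount weighs more. Wars2, Lars2 and Sars2 were the least apart, with differences of -0.16, -0.23 and -0.29.

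The size of this shift depended on how the libraries were scaled. The library size that the authors divided by was 1.15 times the reads recovered in genes for irradiated cKO cells and 0.895 times for irradiated wild-type cells, and this divisor is part of every deposited value. Scaled to the reads recovered in genes, the median was -0.17 for the cytosolic set, with 20 of 20 genes lower against 52.7% of all genes, and -0.18 for the mitochondrial set, with 13 lower and 3 higher. The median over all genes was then -0.02, and no value is given for abundant genes alone on this scale. As deposited, genes with a mean of at least 20 FPKM lay lower than all genes, with medians of -0.52 and -0.31. Scaled to the reads recovered in genes, with the pseudocount of 1 kept, no synthetase gene was 1.5-fold apart between the irradiated libraries. Of all genes 11.4% were higher and 1.46% lower in cKO cells on that scale. Without a pseudocount, Pars2 had 0.60 times the wild-type level in cKO cells (0.453 to 0.790). Yars2 was lower in cKO cells with 0.746 times the wild-type level (0.705 to 0.789), and Lars2 stood at 1.09 times (1.004 to 1.17). As a share of reads the cytosolic genes took 3864 reads per 1e6 in irradiated cKO and 4324 in irradiated wild-type cells, and the mitochondrial genes 687 and 788. Marker genes of other cells also differed between these libraries in the values as deposited. At least 1.5-fold higher in cKO cells were 8 of 8 neutrophil, 8 of 8 macrophage, 6 of 7 B and plasma cell and 4 of 5 T and NK cell genes, against 7.86% of all genes. Of 12 erythroid genes 7 were higher and 3 lower, and of 4 stroma genes 0 were higher and 0 lower. Summed levels were 1296 and 424 FPKM for neutrophil and 1541 and 866 FPKM for macrophage genes in irradiated cKO and wild-type cells. None of the listed genes of these 2 types was at 0. The part of these cells in the lower synthetase values was not tested.

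**Figure D4:**
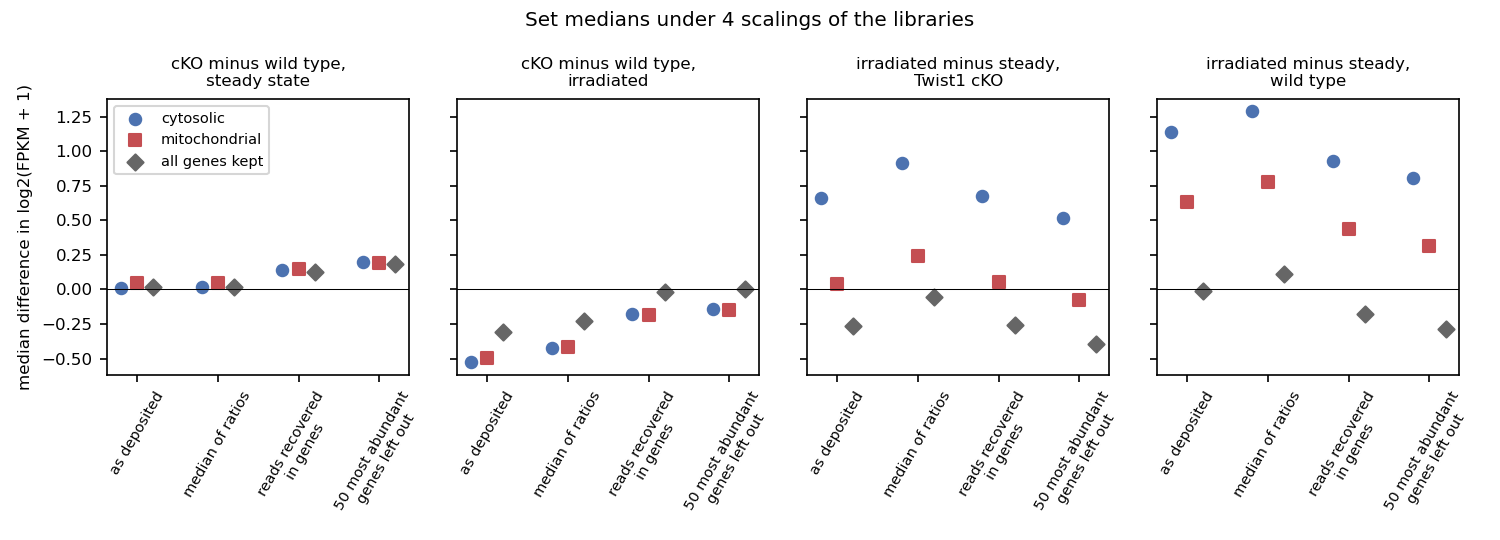
Median difference in log2(FPKM + 1) of the cytosolic set (blue circles), the mitochondrial set (red squares) and all genes kept (grey diamonds) in the 4 comparisons, with the values as deposited and under 3 other scalings of the libraries. In irradiated cells the cKO minus wild-type medians lie between -0.53 and -0.14 for the cytosolic set, whereas the cytosolic set stays above the mitochondrial set in both irradiated minus steady-state panels. A scaling shifts both sets nearly alike, so it could hardly change the gap between them.

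The difference of differences, which sets the genotype difference in irradiated cells against that at steady state, was negative in 35 of 36 genes and positive, at 0.76, in Lars2. Its median was -0.56 for the cytosolic and -0.53 for the mitochondrial set, against -0.32 over all genes, of which 75.3% were negative. Iars, Rars2 and Dars, at -0.84, -0.79 and -0.77, had the lowest values. As deposited, all 3 were higher in cKO than in wild-type cells at steady state, as 19 of the 36 were, against 53% of all genes. They were lower in irradiated cKO than in irradiated wild-type cells, as all 36 were, against 75.3% of all genes. Scaled to the reads recovered in genes, 18 of 20 cytosolic and 12 of 16 mitochondrial genes were higher in steady-state cKO cells. The median over all genes was then 0.13. With the counting intervals of both ratios away from 1, as deposited and scaled to the reads recovered in genes, 10 of the 36 were lower in irradiated cKO and higher in steady-state cKO than in wild-type cells, against 7.01% of all genes. Vars was the 1 gene that was lower after irradiation in cKO and higher in wild-type cells by the same criterion, against 3.09% of all genes. The intervals are narrower for genes with more reads, so abundant genes meet this criterion more readily.

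Set against each other within a library, cytosolic and mitochondrial genes for the same amino acid showed where the balance differed. For 13 amino acids both compartments have a gene of their own here. The ratio of cytosolic to mitochondrial FPKM was higher after irradiation for 10 of 13 in cKO cells, with a median log2 change of 0.40, and for 9 of 13 in wild-type cells, with a median of 0.27. Lars over Lars2 stood out, at 2.55 in irradiated cKO and 2.82 in irradiated wild-type cells, against 0.621 and 0.311 in cKO and wild-type cells at steady state. Cars over Cars2 was 0.833 and 0.802 in irradiated cKO and wild-type cells and 0.319 and 0.294 at steady state, and Hars over Hars2 was 14.7 and 13.8 after irradiation and 6.66 and 7.75 at steady state. In all 3 pairs both irradiated libraries lay above both steady-state libraries. Hars and Hars2 overlap by a few bases on chromosome 18 (chr18:36766528-36783205 and chr18:36783202-36792562), and the labels do not say whether the counting used strand. Yars over Yars2 went the other way, with 0.607 and 0.491 in irradiated cKO and wild-type cells and 0.632 and 0.632 at steady state. Vars over Vars2 and Sars over Sars2 were also lower after irradiation in both genotypes. Summed over the sets, the ratio was 5.81 and 5.62 in irradiated cKO and wild-type cells against 3.88 and 3.29 at steady state, and without Lars2 it was 6.32 and 6.01 against 4.82 and 4.97.

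**Figure D5:**
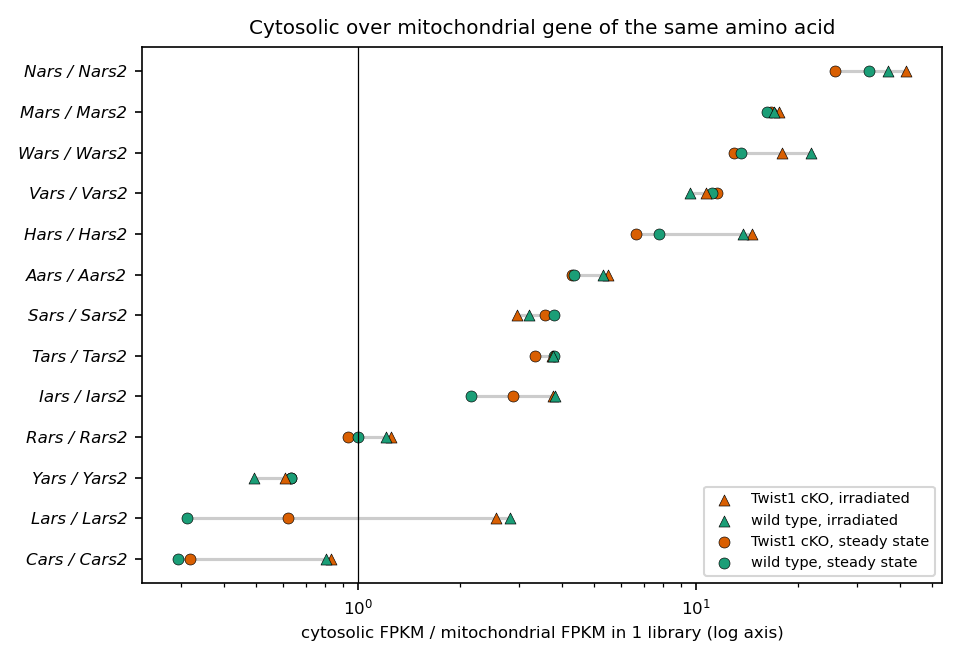
Ratio of cytosolic to mitochondrial FPKM within each library (log axis) for the 13 amino acids with a gene for each compartment; circles are steady-state and triangles irradiated cells, with Twist1 cKO in orange and wild type in green, and the vertical line marks a ratio of 1. Lars over Lars2 spans 0.311 to 2.82, the widest range of the 13 pairs.

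Members of the multisynthetase complex, in which 8 of the cytosolic enzyme genes described here take part (Dars, Eprs, Iars, Kars, Lars, Mars, Qars and Rars), were compared with the 12 other cytosolic genes. The medians after irradiation were 0.56 in the complex and 0.76 outside it in cKO cells, and 1.14 in both groups in wild-type cells. The scaffold genes of the complex were read beside its enzymes. Aimp1 had 13.8 and 21.8 FPKM in irradiated cKO and wild-type cells and 8.26 and 9.70 FPKM at steady state. Aimp2 had 55.5 and 88.9 FPKM in irradiated cKO and wild-type cells and 31.4 and 34.0 FPKM at steady state. Eef1e1 had 193 and 295 FPKM in irradiated cKO and wild-type cells and 100.05 and 104 FPKM at steady state. All 3 were at least 1.5-fold higher after irradiation in both genotypes, against 18.2% of all genes in cKO and 27.8% in wild-type cells. As deposited, all 3 were at least 1.5-fold lower in irradiated cKO than in irradiated wild-type cells, whereas 2 of the 8 enzyme genes were. Of all genes 15.3% were 1.5-fold lower there, and 34.3% of those with a mean of at least 20 FPKM. The values lay near the cut of 0.58, at -0.63, -0.67 and -0.61 for Aimp1, Aimp2 and Eef1e1 and from -0.61 to -0.38 for the enzymes. Split by the fold of the enzyme, cytosolic class I and class II genes had medians of 0.70 and 0.69 after irradiation in cKO cells and 1.19 and 1.14 in wild-type cells, so that neither class led. Mitochondrial class II genes had the higher medians, 0.19 against -0.05 for class I in cKO cells and 0.70 against 0.42 in wild-type cells, and without Lars2 the class I medians were -0.01 and 0.43.

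Other genes of tRNA handling were split. Over all genes 18.2% were at least 1.5-fold higher and 35.7% lower after irradiation in cKO cells, and 27.8% higher and 29.6% lower in wild-type cells. Of 3 genes that clear wrongly joined amino acids from tRNA, 1 was at least 1.5-fold higher after irradiation in cKO and 2 in wild-type cells, with Prorsd1 highest at 1.04 in wild-type cells. Of 16 genes that charge, mature or use mitochondrial tRNA, 7 were at least 1.5-fold higher after irradiation in cKO and 9 in wild-type cells, and none was lower. Tsfm, Tufm and Pus1 led in wild-type cells, with differences of 1.53, 1.43 and 1.34. The first 2 are mitochondrial elongation factors and Pus1 modifies uridines in tRNA. Of 37 genes for making cytosolic tRNA, 7 were higher and 5 lower in cKO cells, and 21 higher and 3 lower in wild-type cells. The 7 of 37 higher in cKO cells are close to the share over all genes. Rpp40 and Rpp30, subunits of the RNase P that trims tRNA, were among the higher ones in wild-type cells, with differences of 1.61 and 1.54. Tsen34, a subunit of the tRNA splicing endonuclease, was lower, at 7.70 and 10.6 FPKM in irradiated cKO and wild-type cells against 26.8 and 27.3 FPKM at steady state. Of 6 elongation factor genes 3 were higher and 1 lower after irradiation in cKO cells, and 4 were higher in wild-type cells. Eef1d and Eif5a led in both genotypes, by 1.803 and 1.63 in wild-type cells. Eef1a1, which carries charged tRNA to the ribosome, was 1.5-fold lower in irradiated than in steady-state cKO cells, at 429 against 707 FPKM.

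Several cytosolic synthetase genes are known targets of Atf4, the transcription factor of the response to amino acid shortage, and the other known targets were therefore read beside them. Of 23 with a mean of at least 1 FPKM, 6 were at least 1.5-fold higher and 4 lower after irradiation in cKO cells, and 9 higher and 4 lower in wild-type cells. The shares over all genes were 18.2% higher and 35.7% lower in cKO cells, and 27.8% higher and 29.6% lower in wild-type cells. Asns, which makes asparagine, had 111 and 182 FPKM in irradiated cKO and wild-type cells and 27.6 and 33.1 FPKM at steady state. Mthfd2 and Psat1, of mitochondrial one-carbon metabolism and serine synthesis, differed by 2.67 and 1.90 in wild-type cells. Trib3, a pseudokinase that feeds back on Atf4, went the other way, with 1.12 and 1.74 FPKM in irradiated cKO and wild-type cells and 9.86 and 8.03 FPKM at steady state. Cebpb was also lower, by 2.75 in wild-type cells. Atf4 mRNA itself stood at 76.8 and 105 FPKM after irradiation and 111 and 99.3 FPKM at steady state in cKO and wild-type cells, and Ddit3 at 27.6 and 36.5 FPKM against 30.8 and 26.0 FPKM. Myc, a transcription factor for growth genes, had 98.1 and 192 FPKM in irradiated cKO and wild-type cells and 197 and 172 FPKM at steady state, so that irradiated cKO cells had the lowest level.

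Promoters were read for letters that Atf4 is known to bind, since the cytosolic genes were higher together in irradiated cells. RefSeq promoters of build GRCm38.p6, from 250 bases before to 50 after the start, matched 13 of the 20 cytosolic and 14 of the 16 mitochondrial genes. The letters TGATGNAA, the core of the C/EBP-ATF response element, were found on either strand in 5 of the 13 cytosolic promoters (Aars, Gars, Iars, Tars and Yars), in 0 of the 14 mitochondrial ones and in 3.97% of all 32851 promoters. The letters CACGTG, the E-box that Myc is known to bind, were found in 4 cytosolic promoters (Aars, Farsb, Iars and Tars), in 1 mitochondrial promoter (Ears2) and in 7.15% of all. In Aars, Iars and Tars both were found, at places that do not overlap. Another set of letters was searched for in the same promoters. It was found in 0 of the 13 cytosolic promoters, in 0 of the 14 mitochondrial ones and in 0.971% of all. The 5 promoters with TGATGNAA are shown 5′ to 3′ on the strand of the gene, with the match in capitals, whole for Aars, whose window holds 2 matches, and as 100 bases for the others.
Aars (chr8:111033592-111033891, plus strand): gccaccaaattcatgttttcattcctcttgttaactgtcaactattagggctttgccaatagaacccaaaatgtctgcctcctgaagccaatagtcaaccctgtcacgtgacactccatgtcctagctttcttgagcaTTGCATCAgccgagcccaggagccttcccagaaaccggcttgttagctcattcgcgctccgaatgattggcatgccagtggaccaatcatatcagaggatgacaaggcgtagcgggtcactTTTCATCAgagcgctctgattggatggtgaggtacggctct
Gars (chr6:55037925-55038024, plus strand): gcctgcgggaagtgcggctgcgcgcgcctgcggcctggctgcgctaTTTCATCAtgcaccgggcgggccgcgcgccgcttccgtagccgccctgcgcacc
Iars (chr13:49682080-49682179, plus strand): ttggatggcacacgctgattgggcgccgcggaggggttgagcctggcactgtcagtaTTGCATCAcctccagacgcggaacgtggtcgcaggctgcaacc
Tars (chr15:11399620-11399719, minus strand): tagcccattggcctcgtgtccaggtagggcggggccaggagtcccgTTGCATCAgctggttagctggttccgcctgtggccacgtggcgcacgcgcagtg
Yars (chr4:129189853-129189952, plus strand): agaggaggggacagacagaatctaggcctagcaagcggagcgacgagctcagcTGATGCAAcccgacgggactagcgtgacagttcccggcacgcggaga
In Aars, Gars, Iars and Tars the capitals are the reverse complement of TGATGNAA, and in Yars they read TGATGCAA itself. The window of Aars lies at a start inside the gene as the annotation gives it. These 5 genes had a median difference after irradiation of 0.76 in cKO and 1.18 in wild-type cells, and the 8 matched cytosolic genes without the letters one of 0.53 and 1.07. The ranges overlapped in both genotypes, from 0.41 to 0.93 and 0.08 to 0.81 in cKO and from 1.08 to 1.46 and 0.56 to 1.54 in wild-type cells. Hars and Cars, among the highest cytosolic genes after irradiation, and Vars, the lowest, had no matched promoter and are in neither group. A match is a description of the letters and not a bound site.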

How the data were processed

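RNA-seq values were read for 4 libraries, 1 for each combination of genotype and condition, and 2 ATAC-seq samples were not analysed here. Values are FPKM per gene as deposited by the authors, 1 file per library with 30409 genes each. Build mm10 and the tools HOMER, MACS2 2.1.0, BWA 0.7.12-r1039 and Bowtie are listed per the submitters' processing notes, for RNA-seq and ATAC-seq together. The tool that counted RNA-seq reads, and its use of strand, have no mention in the labels or notes.

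The members and the gene lists were chosen with earlier results of these data known. The members are the listed genes, with symbols paired to 30231 of the Ensembl identifiers. Differences are log2(FPKM + 1), and a difference of at least 0.58, which is 1.5-fold on that scale, was counted. All-gene medians and shares are over the 11505 genes with a mean of at least 1 FPKM. Any member could be named. Full values were set for the 5 most abundant, the 3 highest and 3 lowest differences of each comparison and every member 1.5-fold apart. Partner genes were named by their largest differences or as fixed genes, and genes outside this rule are said to be so. Some genes that the rule would name are not reported here.

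Whole reads were recovered from the FPKM, given 1 constant per library, for 30409 of 30409 genes within 0.002 reads. The procedure was tested on simulated data. The reads gave 95% intervals, conditional exact binomial for ratios, which cover counting error only. With 1 library per group no test was run and no p-value is given. Implied library sizes were 23450734 and 22146433 for irradiated cKO and wild-type cells, and 25239648 and 26031985 for cKO and wild-type cells at steady state. Promoter sequences are RefSeq's, build GRCm38.p6. Python 3.11.15, numpy 2.4.6, pandas 2.3.3, scipy 1.17.1 and matplotlib 3.10.9 were used. Alternatives were other pseudocounts, scalings, minimum levels, folds and members, with effects given in the closing section. Added after the data were seen were the median without Lars2, counts scaled to recovered reads and all-gene values at higher minimum levels.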

Additional observations from a re-analysis of the deposited data

Results flagged for a closer look

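For 10 of the 36 genes, against 7.01% of all genes, the genotype difference pointed one way in irradiated cells and the other way at steady state, with the 95% counting intervals of both ratios away from 1, as deposited and when scaled to the reads recovered in genes. These genes were lower in irradiated cKO than in irradiated wild-type cells, and higher in cKO than in wild-type cells at steady state. The difference of the 2 differences, on the log2(FPKM + 1) scale, was -0.84 for Iars, -0.79 for Rars2, -0.77 for Dars, -0.72 for Mars, -0.71 for Vars, -0.70 for Hars2, -0.69 for Tars2, -0.64 for Rars, -0.64 for Nars2 and -0.62 for Farsa. The irradiated part ran from -0.61 for Dars to -0.47 for Nars2, and the steady-state part from 0.09 for Farsa to 0.35 for Iars. By the same criterion Vars was the 1 gene whose irradiation difference pointed opposite ways in the genotypes, -0.34 in cKO and 0.37 in wild-type cells, again with -0.71 between them. Marker genes of other cells also differed between genotypes, and not always the same way in both conditions. At least 1.5-fold higher in irradiated cKO cells and lower in steady-state cKO cells were 8 and 8 of 8 macrophage genes. The counts were 7 and 6 of 12 for erythroid and 6 and 4 of 7 for B and plasma cell genes. Over all genes the shares were 7.86% and 4.98%. The erythroid list was mixed, as 3 of the 12 were at least 1.5-fold lower in irradiated cKO cells. Of 8 neutrophil genes 8 were higher in irradiated and 7 in steady-state cKO cells, against 7.86% and 2.2% of all genes. The part of these other cells in the synthetase values was not tested. None of these differences was tested, as there was 1 library per group, and the lower values in irradiated cKO cells stand beside a median of -0.31 over all genes.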

How the results depend on the processing

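Of 168 values recomputed under alternatives, 118 kept their direction and stayed within the 95% order-statistic interval of the set's median, or within 1.5 times for a count, and the rest are given here, as differences in log2(FPKM + 1) or counts; where no construction is named, the cause was not tested. Scaled to the reads recovered in genes, the steady-state cKO minus wild-type medians were 0.14 (cytosolic) and 0.15 (mitochondrial), and the irradiated ones -0.17 and -0.18, with 0.0079 between the sets. The cytosolic median was then 0.93 for irradiation in wild-type cells, and the differences of differences were -0.33 (cytosolic) and -0.33 (mitochondrial). On that scale 0 cytosolic and 0 mitochondrial genes were 1.5-fold lower in irradiated cKO cells, and 5 mitochondrial genes were higher after irradiation in wild-type cells. Without the 50 most abundant genes, the steady-state cKO minus wild-type medians were 0.20 and 0.19, with 0.013 between the sets, and the irradiated ones -0.14 and -0.15, with 0.0082 between them. The cytosolic irradiation medians were then 0.52 in cKO and 0.80 in wild-type cells, the mitochondrial one in cKO cells was -0.077, and the differences of differences were -0.36 and -0.35. With scaling by the median of ratios the cytosolic median was -0.43 for irradiated cKO minus wild type and 0.91 for irradiation in cKO cells. A pseudocount of 5 FPKM, which shrinks low genes, gave a mitochondrial median of -0.28 for irradiated cKO minus wild type, -0.19 between the sets, 1.02 for the cytosolic irradiation median in wild-type cells and -0.30 for the mitochondrial difference of differences. A pseudocount of 0.1 FPKM gave a mitochondrial median of -0.56 and 0.020 between the sets in irradiated cells. The mean in place of the median was -0.036 for the mitochondrial set at steady state, with 0.062 between the sets, and members with a mean of at least 5 FPKM gave 0.0050 between them. Counted at 2-fold, 0 mitochondrial genes were lower in cKO cells at steady state, against 1.95% of all genes. In irradiated cKO cells 0 and 0 genes were 2-fold lower than in irradiated wild-type cells, against 0.782%. After irradiation 1 cytosolic and 0 mitochondrial genes were 2-fold higher in cKO cells, against 9.51% of all genes. In wild-type cells 4 mitochondrial genes were, against 14.9%. After the median of all genes was subtracted, 0 and 0 genes were 1.5-fold lower in irradiated cKO cells, against 1.42% of all genes. On the same measure 5 of the 16 mitochondrial genes were higher after irradiation in cKO cells, against 26.4% of all genes. With no minimum level the shares of all genes apart were lower in 8 of 8 cases, as genes near 0 enter. The interval of the mitochondrial medians is wide, and values inside it still moved by more than 1.5 times: the irradiation median was 0.25 in cKO cells with the median of ratios, 0.24 for members with at least 5 FPKM, 0.081 as a mean and 0.023 with a pseudocount of 5 FPKM, and in wild-type cells 0.31 without the 50 most abundant genes and 0.39 with a pseudocount of 5 FPKM. The gap between the sets in wild-type cells was 0.32 for members with at least 5 FPKM. Some steady-state medians, and some gaps between the sets for cKO minus wild type, lie near 0 and also moved by more than 1.5 times. The gap between cytosolic and mitochondrial medians after irradiation was above 0 in 16 of 16 values, in both genotypes. Some of these values come from scalings of whole libraries. Such a scaling shifts both sets nearly alike and could hardly change the gap. No paired analysis was possible because the labels give no replicate numbers and each group has 1 library. Pars2, at 80 to 162 reads, is the member whose depth limits its values most.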
